A study of Mus musculus with 12 samples.

Results

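A set of 10 genes of sialic acid and O-glycan metabolism were described across alloreactive mouse T cells with and without Foxp3: *Cmah*, *Galnt3*, *Gcnt1*, *St3gal1*, *St3gal6*, *St6gal1*, *St8sia6*, *St8sia1*, *Fut7* and *Selplg*. They are 10 of the 22180 genes that could be named on the array from a transcript cluster with 1 gene symbol. The genes were listed by symbol with earlier results of these data known, so how many of them changed is a description and no independent evidence. The cluster that stands for a gene was chosen by its measured brightness, the highest mean over the 12 arrays. Brightness alone entered that choice, not the differences between groups.

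The cells were T cells of C57BL6-Foxp3-GFP mice, whose green fluorescence (GFP) marks cells that express Foxp3, a transcription factor that defines regulatory T cells. In every group 200000 resting T cells per well had been stimulated by 20000 CD11c dendritic cells of the BALB/c strain, whose foreign histocompatibility molecules drive an alloreactive response. CD8 Foxp3-positive cells had received IL-2 at 5 ng/mL, TGF-β at 5 ng/mL and 40 nM retinoic acid for 4 days and were sorted as GFP-positive. CD8 control cells had received IL-2 at 5 ng/mL alone for 4 days and were sorted as GFP-negative. CD4 Foxp3-positive and CD4 control cells were treated and sorted in the same 2 ways after 5 days. Each group had 3 arrays, replicates A to C. Within a lineage the sort for Foxp3 went with the treatment, and lineage changed together with the length of culture, so in neither case can the contributions be told apart. Cells of the wells were combined for staining, and nothing in the labels ties the replicates to separate animals or cultures, so the p-values cover only how far these samples spread, possibly a technical spread. No age of the animals is given.

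Sialic acids are the acidic sugars at the outer ends of most cell-surface glycans. They are made in the cytosol, activated to a nucleotide donor, and attached in the Golgi by sialyltransferases that differ in the linkage and in the sugar they extend. Mucin-type O-glycans start with N-acetylgalactosamine on serine or threonine, continue to a short core, and end in sialic acid or, on leukocyte selectin ligands, in a branched structure that carries sialic acid and fucose. In T cells these sugars set the binding of selectins, galectins and Siglecs, the last being receptors for sialic acid, and they change as naive cells become effectors.

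Values are log2 expression levels, on which a difference of 1 is a 2-fold change of array signal, and group values are given as mean ± SD over 3 arrays. Differences are Foxp3-positive minus control from a linear model over all 12 arrays (limma), with its standard error (SE), its 95% interval where useful, and a p-value adjusted over all 22180 genes. A gene was called at an adjusted p under 0.05. In such bulk samples fewer cells of a type and less RNA per cell cannot be told apart. Levels were compared only within a gene, since probes of different genes differ in brightness, apart from placing them against the median of all genes. The median of all genes' mean levels was 5.60, and folds against means near or below it are ratios of array signal. Pearson's r between arrays, taken across all genes (not independent replicates), was 0.992 to 0.994 within a group and 0.962 to 0.991 between groups. *Foxp3* itself averaged 12.48 ± 0.05 in CD8 Foxp3-positive cells and 5.66 ± 0.59 in CD8 control cells, and 12.44 ± 0.05 in CD4 Foxp3-positive cells and 5.76 ± 0.29 in CD4 control cells (SD, n = 3 each), which follows from the sort. The pan-T-cell genes *Cd3e*, *Cd3d*, *Cd3g*, *Cd2* and *Cd5* stood above the median in all 4 groups. In the same order of groups *Cd4* averaged 5.2, 5.4, 11.9 and 12.3, *Cd8a* 12.5, 11.8, 7.5 and 6.5, and *Cd8b1* 12.0, 11.9, 6.2 and 7.7. Both CD8 genes thus stood above the median in the CD4 groups too. There *Cd8b1* fell by 1.55 (adjusted p = 2.81e-06) and *Cd8a* rose by 1.03 (adjusted p = 0.0273). Whether CD8 cells were present in the CD4 groups was not tested. *Zbtb7b*, also listed for CD4 T cells, averaged 6.4, 7.0, 7.0 and 7.5 in the same order, so it hardly separated the lineages. The regulatory T cell markers *Il2ra* and *Ctla4* rose in CD8 cells, by 0.555 (adjusted p = 0.000962) and 0.73 (adjusted p = 0.00384). In CD4 cells neither was called (-0.08 and 0.25). *Ikzf2* of that list rose by 2.71 in CD4 cells (adjusted p = 0.000171), with 0.715 in CD8 cells (adjusted p = 0.244).

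In CD8 cells 8 of the 10 genes differed between Foxp3-positive and control cells, 3 higher and 5 lower, where 20.0% of all genes were called, 9.39% higher and 10.6% lower. In CD4 cells 7 of 10 differed, 4 higher and 3 lower, where 22.5% of all genes were called, 12.1% higher and 10.4% lower. The arrays of the 2 groups did not overlap for 10 of 10 genes in CD8 cells (33.5% of all genes) and for 9 of 10 in CD4 cells (37.8% of all genes). *St8sia6* and *Gcnt1* rose and *St3gal1*, *St3gal6* and *Galnt3* fell in both lineages, and *Cmah* was called in both with opposite signs. These 6 genes called in both lineages stand against 10.2% of all genes. The median difference of the 10 genes was -0.54 in CD8 and -0.01 in CD4 cells, and over all genes it was -0.02 and 0.00.

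**Figure D1:**
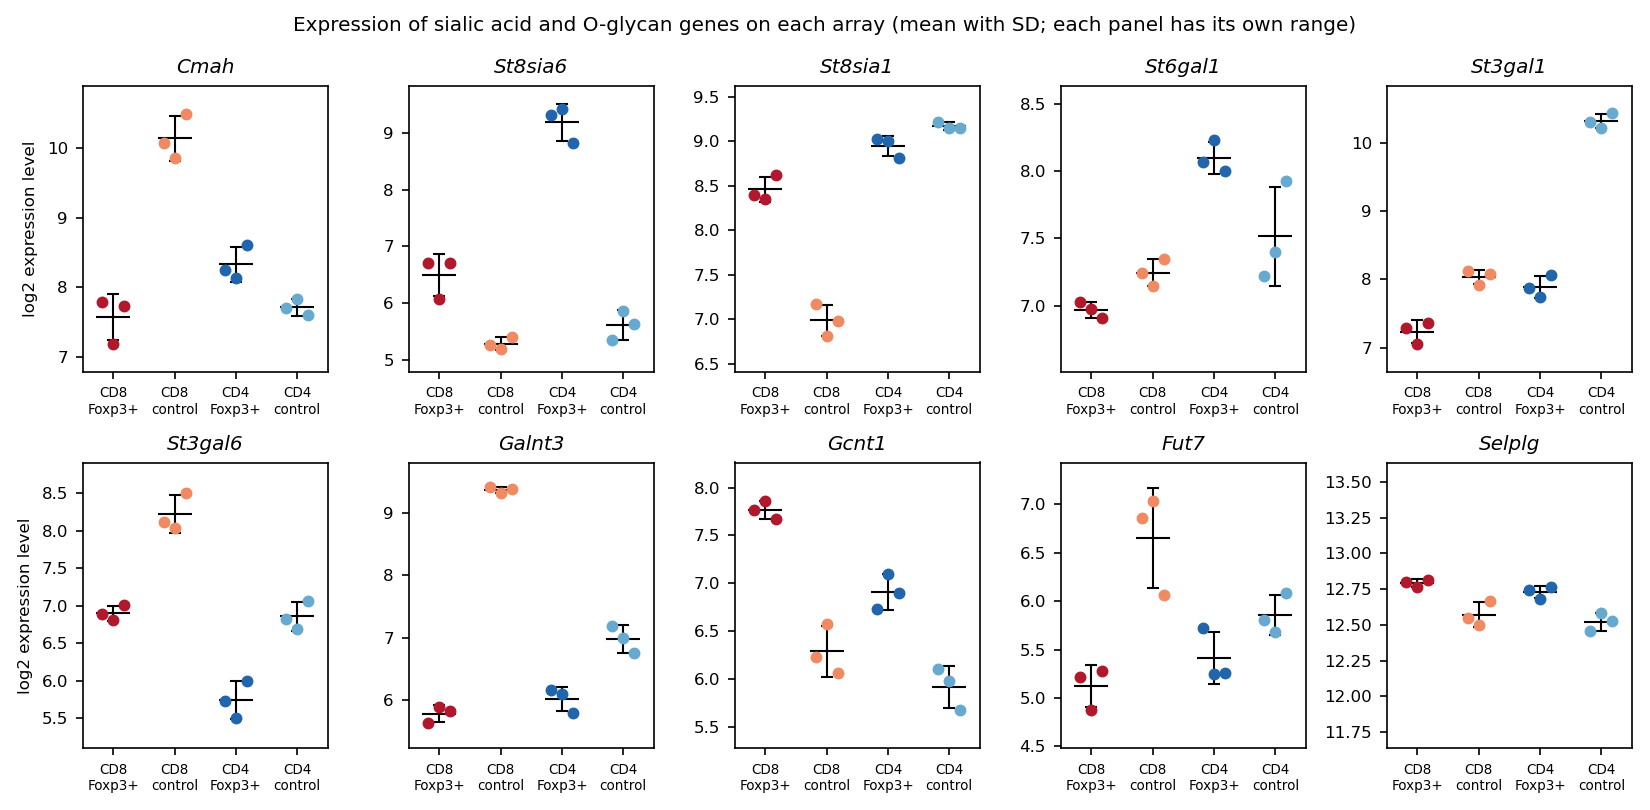
Log2 expression level (vertical axes) of the 10 genes on each of the 12 arrays, with coloured points for replicates A to C, a horizontal bar for the group mean and whiskers for the SD. Each panel has its own vertical range. *Galnt3* and *Cmah* stand apart in CD8 control cells, *St3gal1* in CD4 control cells and *St8sia6* in CD4 Foxp3-positive cells.

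*Cmah* encodes the hydroxylase that converts activated N-acetylneuraminic acid into N-glycolylneuraminic acid, the second common sialic acid of mice. Its level was 7.80, 7.19 and 7.74 in CD8 Foxp3-positive cells and 10.08, 9.85 and 10.49 in CD8 control cells (replicates A, B and C). It was 8.25, 8.13 and 8.61 in CD4 Foxp3-positive cells and 7.71, 7.84 and 7.60 in CD4 control cells. CD8 control cells stood alone at the top, and the lowest groups, CD8 Foxp3-positive and CD4 control, overlapped. *Cmah* was 5.91-fold lower in CD8 Foxp3-positive than in CD8 control cells (log2 difference -2.56 ± 0.19 (SE), adjusted p = 8.03e-07). In CD4 cells it was 1.53-fold higher (0.61 ± 0.19, adjusted p = 0.0339). The opposite signs gave a difference between the lineage effects of -3.17 ± 0.27 (adjusted p = 1.12e-05), the largest among the 10 genes. The CD4 call was lost when CD4 control replicate A, B or C or CD4 Foxp3-positive replicate A or C was left out, with differences of 0.47 to 0.68 and adjusted p of 0.0521 to 0.126.

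The gene *Galnt3* encodes one of the N-acetylgalactosaminyltransferases that place the first sugar of mucin-type O-glycans. It stood at 5.62, 5.88 and 5.82 in CD8 Foxp3-positive cells and at 9.41, 9.31 and 9.38 in CD8 control cells. CD4 Foxp3-positive cells had 6.16, 6.10 and 5.80, and CD4 control cells 7.19, 6.99 and 6.75. The order of the groups was CD8 control, CD4 control and then both Foxp3-positive groups, which overlapped. *Galnt3* fell in both lineages, by 3.59 on the log2 scale in CD8 cells (SE 0.13, adjusted p = 1.79e-09, a 12.0-fold lower signal) and by 0.96 in CD4 cells (SE 0.13, adjusted p = 1e-04, 1.95-fold lower). The fall was larger in CD8 cells by 2.63 ± 0.18 (adjusted p = 1.98e-06). Both Foxp3-positive means, 5.78 ± 0.14 and 6.02 ± 0.19, lay close to the median of all genes.

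*Gcnt1* encodes the branching enzyme that turns the core 1 O-glycan into core 2, the scaffold on which selectin ligands of leukocytes are built. The levels were 7.77, 7.86 and 7.67 in CD8 Foxp3-positive cells and 6.23, 6.58 and 6.06 in CD8 control cells. In CD4 Foxp3-positive cells they were 6.73, 7.10 and 6.90, and in CD4 control cells 6.11, 5.98 and 5.68. Both Foxp3-positive groups were above both control groups, and the control groups overlapped. *Gcnt1* rose 2.78-fold in CD8 cells (1.48 ± 0.15, adjusted p = 1.24e-05) and 1.99-fold in CD4 cells (0.99 ± 0.15, adjusted p = 0.000276). The lineage effects differed by 0.49 (95% interval 0.03 to 0.94), which did not pass the adjusted threshold (adjusted p = 0.159).

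*St3gal1* encodes the sialyltransferase that caps the galactose of core 1, a step that competes with core 2 branching. Its values were 7.29, 7.05 and 7.36 in CD8 Foxp3-positive cells and 8.12, 7.92 and 8.07 in CD8 control cells. They were 7.87, 7.74 and 8.06 in CD4 Foxp3-positive cells and 10.30, 10.22 and 10.43 in CD4 control cells. CD4 control cells were more than 2 log2 units above every other array, while CD8 control and CD4 Foxp3-positive cells overlapped. *St3gal1* fell 5.37-fold in CD4 cells (-2.43 ± 0.11, adjusted p = 9.82e-09) and 1.74-fold in CD8 cells (-0.80 ± 0.11, adjusted p = 0.000214). The fall was larger in CD4 cells (CD8 effect minus CD4 effect 1.62 ± 0.16, adjusted p = 3.84e-05).

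The sialyltransferase of *St3gal6* adds sialic acid in the same linkage to galactose on N-acetyllactosamine chains, including those that become selectin ligands. CD8 Foxp3-positive cells had 6.882, 6.805 and 7.003 and CD8 control cells 8.11, 8.04 and 8.51. CD4 Foxp3-positive cells had 5.732, 5.498 and 6.002 and CD4 control cells 6.82, 6.69 and 7.07. CD8 Foxp3-positive and CD4 control cells overlapped between a higher CD8 control group and a lower CD4 Foxp3-positive group. *St3gal6* fell 2.50-fold in CD8 cells (-1.32 ± 0.15, adjusted p = 4.05e-05) and 2.16-fold in CD4 cells (-1.11 ± 0.15, adjusted p = 0.000135). The difference between these effects was -0.21, with a 95% interval of -0.68 to 0.26 (adjusted p = 0.612).

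*St6gal1* makes the sialylated N-acetyllactosamine that the B cell Siglec CD22 binds. It was at 7.02, 6.97 and 6.91 in CD8 Foxp3-positive cells and at 7.24, 7.15 and 7.35 in CD8 control cells. It was at 8.065, 8.233 and 8.003 in CD4 Foxp3-positive cells and at 7.22, 7.40 and 7.93 in CD4 control cells. CD4 Foxp3-positive cells were highest, and the 2 control groups overlapped. In CD4 cells *St6gal1* was higher (0.58 ± 0.15, adjusted p = 0.012). In CD8 cells the difference was -0.28 (95% interval -0.60 to 0.05, adjusted p = 0.247), and the lineage effects differed by -0.86 ± 0.21 (adjusted p = 0.0166). Among the CD4 control arrays replicate C was the highest. The CD4 call was lost without CD4 control replicate A or B or CD4 Foxp3-positive replicate B (0.44 to 0.53, adjusted p = 0.0519 to 0.0534) and with the 6 CD4 arrays alone (adjusted p = 0.0521).

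*St8sia6* encodes a sialyltransferase that adds sialic acid onto sialic acid, mainly on O-glycans, and whose products are ligands of the inhibitory receptor Siglec-E in mice. The levels were 6.71, 6.08 and 6.71 in CD8 Foxp3-positive cells and 5.27, 5.20 and 5.41 in CD8 control cells. They were 9.31, 9.42 and 8.81 in CD4 Foxp3-positive cells and 5.35, 5.87 and 5.64 in CD4 control cells. Both control groups lay near the median of all genes and overlapped, CD8 Foxp3-positive cells were above them, and CD4 Foxp3-positive cells were more than 2 log2 units higher again. *St8sia6* rose 11.8-fold in CD4 cells (3.56 ± 0.20, adjusted p = 4.13e-08) and 2.31-fold in CD8 cells (1.21 ± 0.20, adjusted p = 0.000634). The lineage effects differed by -2.36 ± 0.28 (adjusted p = 0.000139).

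*St8sia1* encodes GD3 synthase, which adds a second sialic acid to the ganglioside GM3. In CD8 cells its level was 8.39, 8.35 and 8.62 with Foxp3 and 7.17, 6.81 and 6.98 in controls. CD4 Foxp3-positive cells had 9.020, 8.998 and 8.814 and CD4 control cells 9.22, 9.15 and 9.14. No neighbouring groups overlapped, and CD8 control cells stood alone at the bottom. *St8sia1* rose 2.77-fold in CD8 cells (1.47 ± 0.11, adjusted p = 8.67e-07). In CD4 cells the difference was -0.23 (95% interval -0.46 to 0.01, adjusted p = 0.172), and the lineage effects differed by 1.70 ± 0.16 (adjusted p = 1.98e-05).

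*Fut7* encodes the fucosyltransferase that completes sialyl Lewis x, the sugar epitope that E- and P-selectin bind. Levels were 5.22, 4.88 and 5.28 in CD8 Foxp3-positive cells and 6.85, 7.03 and 6.06 in CD8 control cells. They were 5.72, 5.25 and 5.26 in CD4 Foxp3-positive cells and 5.81, 5.68 and 6.09 in CD4 control cells. CD8 control replicates A and B were the highest arrays, and neighbouring groups in the order of means overlapped. *Fut7* fell 2.88-fold in CD8 cells (-1.53 ± 0.23, adjusted p = 0.000295), which is a ratio against a signal below that median. In CD4 cells the difference was -0.45 (95% interval -0.93 to 0.04, adjusted p = 0.191). The lineage effects differed by -1.08 ± 0.32 (adjusted p = 0.0407). That last call was lost with replicates A to C as a block (adjusted p = 0.053) and when any array but replicate C of CD8 control, CD4 control or CD4 Foxp3-positive cells was left out (-0.89 to -1.16, adjusted p = 0.0525 to 0.0975).

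*Selplg* encodes PSGL-1, the mucin-like glycoprotein that carries these O-glycans and binds P-selectin when they are branched, sialylated and fucosylated. It stood at 12.80, 12.77 and 12.82 in CD8 Foxp3-positive cells and at 12.55, 12.50 and 12.67 in CD8 control cells. It stood at 12.75, 12.68 and 12.77 in CD4 Foxp3-positive cells and at 12.46, 12.58 and 12.52 in CD4 control cells. The span of its group means was 0.27, the smallest among the 10 genes, where the others spanned 1.13 to 3.89. Both differences were small and did not pass, 0.22 in CD8 cells (95% interval 0.05 to 0.40, adjusted p = 0.0715) and 0.21 in CD4 cells (0.04 to 0.38, adjusted p = 0.0773), although the arrays of the groups did not overlap. With CD8 control replicate C left out the CD8 difference passed (0.27, adjusted p = 0.0359). *Selplg* was the only gene of the 10 with a second 1-symbol cluster, whose mean over the arrays was 11.18 against 12.65 for the cluster used. Averaging both clusters gave 0.29 in CD8 cells (adjusted p = 0.0326).

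**Figure D2:**
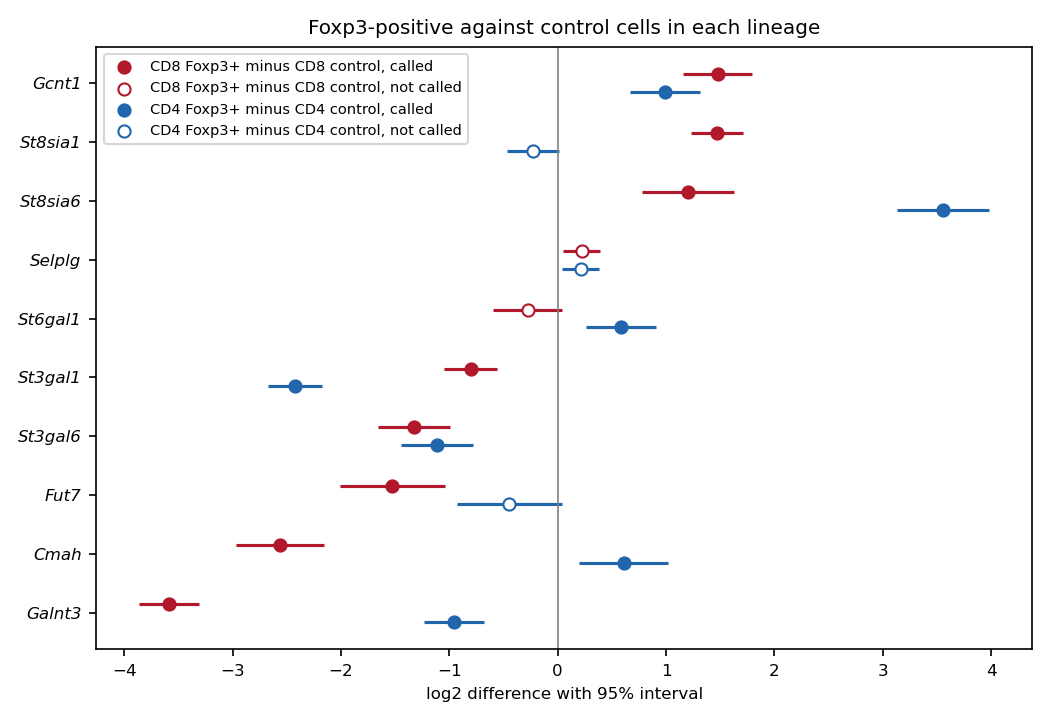
Log2 difference of Foxp3-positive minus control cells (horizontal axis) for each gene, CD8 above CD4, with 95% intervals from the limma model over 12 arrays. Filled points passed the adjusted threshold of 0.05. *Cmah* lies at -2.56 in CD8 and 0.61 in CD4 cells, and *St8sia6* at 1.21 and 3.56.

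Promoter windows of RefSeq, 250 bases before to 50 after a transcription start, were at hand for 8 of the 10 genes (15 windows, GRCm38.p6). Those of *St8sia6* and *Galnt3* are shown because these genes had the largest rise and the largest fall, and both have 1 window. That of *St8sia1* is shown because it held the most of the motifs searched on both strands. The motifs were AGGTCA, a half-site of retinoic acid receptors, CAGACA, a SMAD box, TGTTTAC, a forkhead core, and AGGTGTGA, a T-box site. Capitals mark these motifs. The *St8sia6* window is chr2:13793471-13793770, the *Galnt3* window chr2:66124744-66125043 and the *St8sia1* window chr6:142964403-142964702, all on the minus strand and written 5′ to 3′.
St8sia6: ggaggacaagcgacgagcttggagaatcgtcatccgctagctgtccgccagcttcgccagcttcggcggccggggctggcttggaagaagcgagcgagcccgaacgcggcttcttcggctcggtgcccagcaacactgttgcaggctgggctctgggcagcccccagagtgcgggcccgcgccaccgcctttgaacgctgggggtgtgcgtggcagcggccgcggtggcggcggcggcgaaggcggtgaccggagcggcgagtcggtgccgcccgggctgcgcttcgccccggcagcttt
Galnt3: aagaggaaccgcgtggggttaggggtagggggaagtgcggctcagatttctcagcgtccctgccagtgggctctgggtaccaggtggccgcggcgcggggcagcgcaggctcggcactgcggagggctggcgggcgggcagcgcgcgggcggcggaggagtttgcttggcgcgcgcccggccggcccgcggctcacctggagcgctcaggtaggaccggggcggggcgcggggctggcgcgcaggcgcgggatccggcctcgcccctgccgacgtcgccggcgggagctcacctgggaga
St8sia1: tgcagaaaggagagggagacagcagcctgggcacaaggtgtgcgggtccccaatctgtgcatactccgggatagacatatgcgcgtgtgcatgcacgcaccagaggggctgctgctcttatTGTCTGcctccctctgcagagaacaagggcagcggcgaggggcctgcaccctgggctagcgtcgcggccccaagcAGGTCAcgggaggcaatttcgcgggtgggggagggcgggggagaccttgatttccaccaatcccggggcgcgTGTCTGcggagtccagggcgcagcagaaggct

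The *St8sia6* and *Galnt3* windows held none of the 4 motifs and were rich in CpG, with 39 and 41 CpG dinucleotides against a median of 7 over all 32817 windows. The *St8sia1* window held 19 CpG, a retinoic acid receptor half-site starting at -54 and 2 SMAD boxes on the opposite strand at -129 and 18, counted from the start. Over all windows the half-site was found in 16.3%, the SMAD box in 21.0%, the forkhead core in 3.65% and the T-box site in 1.27%. Of the 15 windows 2 held the half-site (13.3%), those of *St6gal1* and *St8sia1*, and 5 the SMAD box (33.3%), those of *Cmah*, *Fut7*, *Gcnt1* and *St8sia1*. The forkhead core and the T-box site were in 0 of the 15. These letter matches are a description and no measure of binding. In RefSeq (GRCm38.p6) *Cmah* lies at chr13:24327404-24477289, *Galnt3* at chr2:66082766-66125056, *Gcnt1* at chr19:17326141-17372844, *St3gal1* at chr15:67102875-67176946, *St3gal6* at chr16:58469742-58524260. *St6gal1* lies at chr16:23224729-23360350, *St8sia6* at chr2:13651018-13794734, *St8sia1* at chr6:142821541-142989528, *Fut7* at chr2:25422351-25426374, *Selplg* at chr5:113817798-113832528. These are the spans of the whole genes. RefSeq also places the protein-coding gene *Dcbld2* over part of *St3gal6*, and non-coding RNA genes over *Cmah*, *St8sia1*, *St6gal1*, *St3gal1* and *St3gal6*, and which of these transcripts the probes read is not stated.

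The distance between the CD8 and CD4 lineages was then set out for Foxp3-positive and for control cells. These comparisons use the same arrays as those above. In Foxp3-positive cells 7 of the 10 genes differed between CD8 and CD4, where 4.71% of all genes were called. In control cells 6 of 10 differed, where 20.9% of all genes were called. The effect of the Foxp3-positive condition differed between the lineages for 7 of 10 genes, where 13.5% of all genes were called. For 5 of these 7 genes, *Cmah*, *Galnt3*, *St3gal1*, *St8sia1* and *Fut7*, the CD8 and CD4 means were closer in Foxp3-positive than in control cells. For *St8sia6* and *St6gal1* they were farther apart. Over all genes with such a call 81.0% were closer, so 5 of 7 (71.4%) is near the background.

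CD8 minus CD4 was -0.24 in Foxp3-positive cells (95% interval -0.52 to 0.03, adjusted p = 0.379) and 2.39 in control cells (adjusted p = 6.58e-08) for *Galnt3*. *St3gal1* had -0.66 in Foxp3-positive cells (adjusted p = 0.00424) and -2.28 in control cells (adjusted p = 3.23e-08). For *St8sia1* the values were -0.49 (adjusted p = 0.0218) and -2.19 (adjusted p = 3.44e-08) in the same order. These 3 genes thus separated the lineages by more than 4-fold in control cells and by at most 1.58-fold in Foxp3-positive cells. The sign turned for *Cmah*, which had -0.75 in Foxp3-positive cells (adjusted p = 0.0402) and 2.42 in control cells (adjusted p = 1.84e-06). *St8sia6* was 6.42-fold lower in CD8 than in CD4 Foxp3-positive cells (-2.68 ± 0.20, adjusted p = 6.64e-06), while in control cells it differed by -0.33 (95% interval -0.75 to 0.10, adjusted p = 0.303). *St6gal1* was 2.19-fold lower in CD8 than in CD4 Foxp3-positive cells (-1.13 ± 0.15, adjusted p = 0.000653). In both conditions *St3gal6* was higher in CD8 cells, by 1.15 in Foxp3-positive cells (adjusted p = 0.000707) and by 1.36 in control cells (adjusted p = 3.75e-05). *Gcnt1* was higher in CD8 than in CD4 Foxp3-positive cells by 0.86 (adjusted p = 0.00422).

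Some lineage calls lay near the threshold and did not hold when 1 array was left out. The call for *Cmah* in Foxp3-positive cells was lost without any single array except CD8 control replicate B or C or CD8 Foxp3-positive replicate A (-0.56 to -0.85, adjusted p = 0.0505 to 0.156). Of these 9 arrays 4 were control arrays, without which the difference itself stayed at -0.75. That for *St8sia1* was lost without replicate A or B of either Foxp3-positive group (-0.44 to -0.46, adjusted p = 0.0846 to 0.0984). In control cells the call for *Fut7* (0.79, adjusted p = 0.0233) was lost without replicate A or B of either control group (0.60 to 0.77, adjusted p = 0.0658 to 0.101), and the difference of *Gcnt1* (0.37, adjusted p = 0.106) passed when CD8 control replicate C was left out (0.48, adjusted p = 0.0477).

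**Figure D3:**
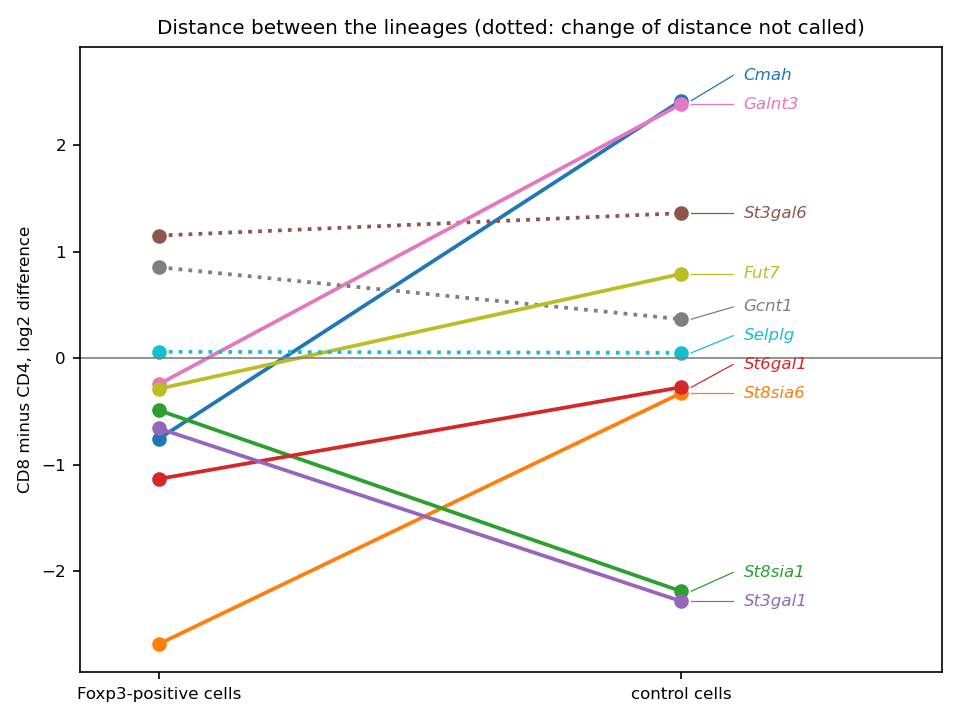
Log2 difference of CD8 minus CD4 (vertical axis) in Foxp3-positive cells on the left and control cells on the right, one line per gene. Solid lines mark genes whose Foxp3-positive effect differed between the lineages at an adjusted p under 0.05. *Galnt3*, *St3gal1* and *St8sia1* run toward 0 on the left, and *St8sia6* runs away from it to -2.68.

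Dendritic cells had been in the cultures. Of 10 dendritic cell markers 8 were measured. Their summed log2 level was 48.99 to 49.06 in CD8 Foxp3-positive and 51.20 to 52.30 in CD8 control arrays, and 47.72 to 49.35 in CD4 Foxp3-positive and 51.21 to 52.37 in CD4 control arrays. *Itgax* fell by 1.76 in CD8 cells (adjusted p = 1.02e-06) and had -0.07 in CD4 cells. *Batf3* fell by 0.96 in CD8 cells (adjusted p = 0.016) and by 1.57 in CD4 cells (adjusted p = 0.000523). *H2-Ab1* fell by 1.05 in CD4 cells (adjusted p = 0.0368) and had -0.04 in CD8 cells. The other 5 measured markers were called in neither lineage. *Flt3*, *Zbtb46*, *Xcr1* and *Siglech* averaged 4.71 to 5.49 over the groups, all below the median of all genes, while *Cd209a* and *H2-Ab1* averaged 8.95 or more in every group. Of 7 B cell markers 6 were measured, with a summed level of 31.71 to 32.47 in CD8 Foxp3-positive and 30.39 to 31.28 in CD8 control arrays, and 30.17 to 31.33 in CD4 Foxp3-positive and 29.80 to 30.67 in CD4 control arrays. *Cd79b* alone among them was above the median, and it rose by 1.1 in CD8 cells (adjusted p = 0.000192) and by 0.77 in CD4 cells (adjusted p = 0.00241). *Cd79a* rose by 0.36 in CD8 cells (adjusted p = 0.0491), and *Cd22* fell by 0.60 in CD4 cells (adjusted p = 0.0081). Summed over 7 macrophage and monocyte markers the levels were 37.80 to 40.99, 37.39 to 38.01, 37.03 to 38.70 and 36.94 to 38.71 in the same order of groups. *Lyz2* of that list rose by 1.82 in CD8 cells (adjusted p = 0.000535) and 1.06 in CD4 cells (adjusted p = 0.0184), and *Cd68* fell by 0.63 and 1.19. *C1qb* rose by 0.72 in CD8 cells (adjusted p = 0.0143) and had 0.22 in CD4 cells (adjusted p = 0.476). Of 4 NK cell markers 3 were measured, all below the median and called in neither lineage. *Pf4*, the only measured gene of 5 red cell and platelet markers, was below the median. It rose by 0.46 in CD8 cells (adjusted p = 0.0138). The part of such cells in the values of the sialic acid and O-glycan genes was not tested.

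The other genes of the pathway were taken from lists of enzymes, carriers and receptors, 122 genes of 12 lists that include the 10, of which 120 were measured. Some enzyme families, such as the B3gnt genes, were listed only in part. The lists were written with earlier results known. In CD8 cells 16 of the 120 rose and 22 fell, and in CD4 cells 18 rose and 31 fell, that is 31.7% and 40.8% called, where 20.0% and 22.5% of all genes were. The highest group mean lay above the median of all genes' mean levels for 87 of the 120 genes (72.5%), against 11813 of the 22180 genes (53.3%). A gene that differs between groups passes this measure more easily, so it is not independent of the calls. Of the 110 measured genes outside the 10, 27.3% were called in CD8 and 38.2% in CD4 cells.

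**Figure D4:**
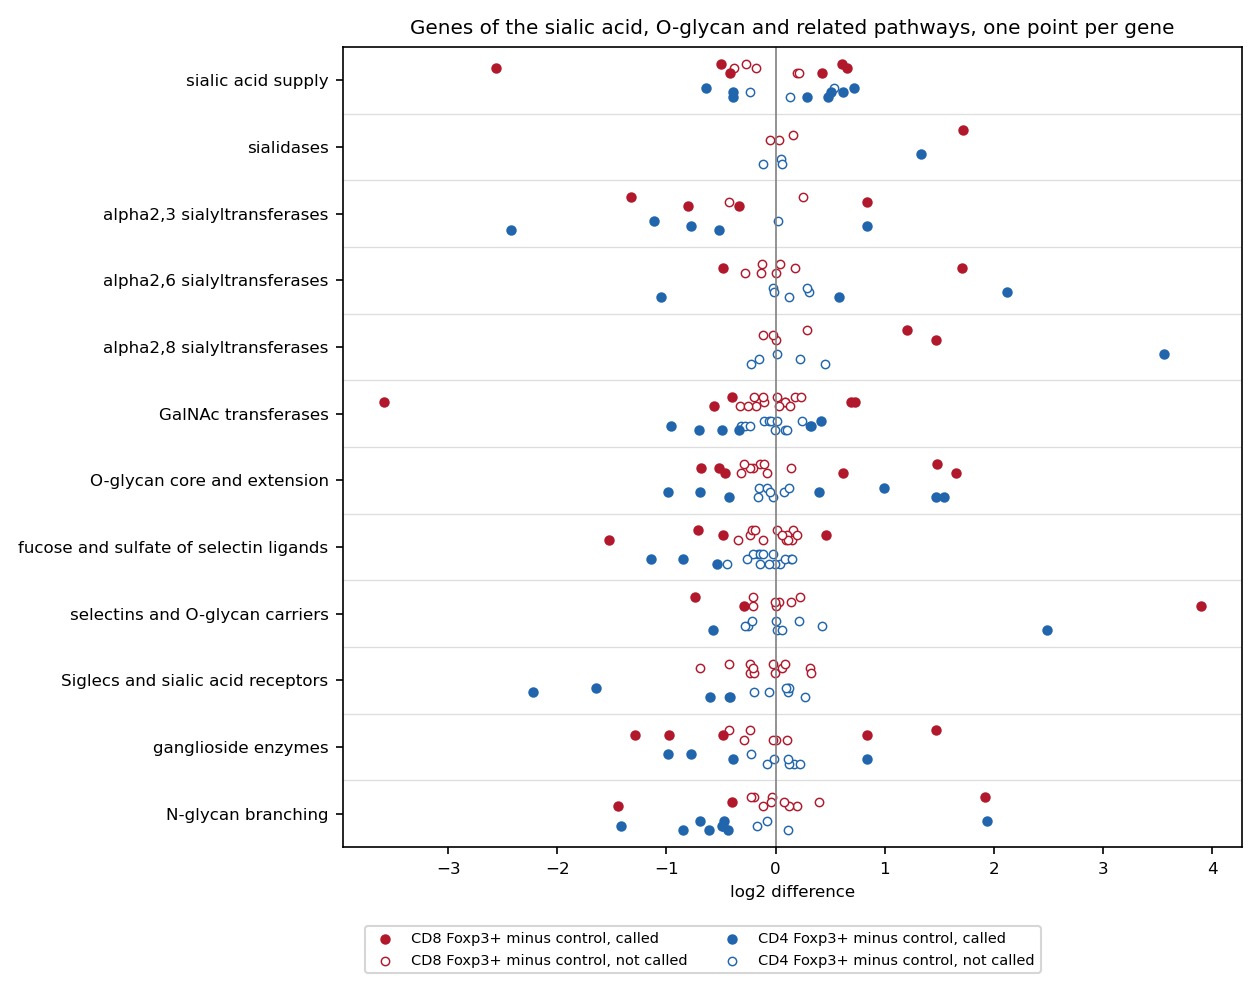
Log2 difference of Foxp3-positive minus control cells (horizontal axis) for every measured gene of the 12 pathway lists, CD8 above CD4 within each list. Filled points passed the adjusted threshold of 0.05, and a gene in 2 lists appears in both. The largest rise outside the 10 genes was that of *Cd24a*, at 3.90 in CD8 and 2.49 in CD4 cells.

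Genes of sialic acid metabolism, from supply to conversion and breakdown, moved both ways. Of 11 measured, 3 rose and 3 fell in CD8 cells (median -0.18) and 5 rose and 3 fell in CD4 cells (median 0.28). That is 54.5% and 72.7% called, where 20.0% and 22.5% of all genes were. *Slc35a1*, the Golgi transporter of activated sialic acid, rose by 0.66 ± 0.12 in CD8 cells (adjusted p = 0.00141) and by 0.50 ± 0.12 in CD4 cells (adjusted p = 0.00775). *Nanp*, the phosphatase of the last synthesis step, rose by 0.72 ± 0.11 in CD4 cells (adjusted p = 0.000315), with -0.28 in CD8 cells (adjusted p = 0.106). *Gne*, the enzyme that starts the pathway, had 0.22 in CD8 cells (adjusted p = 0.129) and 0.13 in CD4 cells (adjusted p = 0.376). Among 4 sialidases, which remove sialic acid, *Neu3* rose 3.29-fold in CD8 cells (1.72 ± 0.15, adjusted p = 4.54e-06) and 2.52-fold in CD4 cells (1.33 ± 0.15, adjusted p = 3.08e-05). The other 3 were not called in either lineage, so the called share, 25% in each, is near that of all genes. *Neu1*, the lysosomal sialidase, had 0.03 and -0.12 in CD8 and CD4 cells.

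Sialyltransferase families differed in which members moved. Of the 6 St3gal genes 1, *St3gal2*, rose in both lineages, by 0.84 ± 0.13 in CD8 cells (adjusted p = 0.00037) and 0.84 ± 0.13 in CD4 cells (adjusted p = 0.000325). *St3gal1*, *St3gal4* and *St3gal6* fell in CD8 cells, and these and *St3gal5* in CD4 cells, and the list medians were -0.38 and -0.65. The called shares were 66.7% and 83.3%, where 20.0% and 22.5% of all genes were called. *St3gal3* was not called (0.26 in CD8 and 0.02 in CD4 cells). Of 8 St6gal and St6galnac genes 1 rose and 1, *St6galnac6*, fell in CD8 cells, and 2 rose and 1 fell in CD4 cells. That is 25% and 37.5% called. *St6galnac3*, whose enzyme sialylates the inner sugar of already sialylated O-glycans and gangliosides, rose 3.27-fold in CD8 cells (1.71 ± 0.15, adjusted p = 3.73e-06) and 4.35-fold in CD4 cells (2.12 ± 0.15, adjusted p = 4e-07). *St6galnac2* fell by 1.05 in CD4 cells (adjusted p = 0.000139) and had -0.14 in CD8 cells (adjusted p = 0.615), and *St6galnac4* was called in neither. Of 6 St8sia genes only *St8sia6* and *St8sia1* were called in CD8 cells (33.3%) and only *St8sia6* in CD4 cells (16.7%). *St8sia4*, a polysialyltransferase, had 0.00 in CD8 cells and 0.45 in CD4 cells (adjusted p = 0.0729).

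O-glycan start and core genes also moved both ways. Of 18 N-acetylgalactosaminyltransferase genes 2 rose and 3 fell in CD8 cells and 2 rose and 4 fell in CD4 cells. That is 27.8% and 33.3% called, where 20.0% and 22.5% of all genes were. None of the 17 besides *Galnt3* came near its fall in CD8 cells, the next largest called change being that of *Galnt6*, which rose by 0.73 ± 0.10 in CD8 cells (adjusted p = 0.000173), before *Galnt2*, which fell by 0.70 in CD4 cells (adjusted p = 0.000185). *Galnt4* was not called (0.23 and 0.24 in CD8 and CD4 cells). Of 14 core and extension genes 3 rose and 3 fell in CD8 cells and 4 rose and 3 fell in CD4 cells, that is 42.9% and 50% called. The galactosyltransferase *B4galt4* rose 3.15-fold in CD8 cells (1.65 ± 0.11, adjusted p = 3.81e-07) and 2.90-fold in CD4 cells (1.54 ± 0.11, adjusted p = 5.2e-07). *B4galt1*, the main galactosyltransferase of N-acetyllactosamine chains, rose 1.54-fold in CD8 cells and 2.77-fold in CD4 cells, and the chain-extending *B3gnt2* was called in neither (-0.08 and -0.16). *C1galt1*, the core 1 synthase, named after its values were seen, fell by 0.47 in CD8 cells (adjusted p = 0.00121) and by 0.43 in CD4 cells (adjusted p = 0.00219). *C1galt1c1* of the same list, also named after its values were seen, went the other way. It rose by 0.39 in CD4 cells (adjusted p = 0.0272) and had 0.14 in CD8 cells (adjusted p = 0.509).

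Of 17 fucose and sulfate genes 1 rose and 3 fell in CD8 cells, and 3 fell in CD4 cells. These are 23.5% and 17.6% called, near the 20.0% and 22.5% of all genes. *Tpst2*, which sulfates the tyrosines of PSGL-1 needed for P-selectin binding, fell by 0.48 in CD8 cells (adjusted p = 0.00771) and by 1.14 in CD4 cells (adjusted p = 7.11e-06). *Gmds*, of the fucose donor pathway, was called in neither lineage (0.06 in CD8 and -0.26 in CD4 cells). Of 10 measured selectins and O-glycan carriers 1 rose and 2 fell in CD8 cells, and 1 rose and 1 fell in CD4 cells. These are 30% and 20% called, where 20.0% and 22.5% of all genes were. *Cd24a*, a small heavily glycosylated surface protein, rose 14.9-fold in CD8 cells (3.90 ± 0.18, adjusted p = 1.28e-08) and 5.62-fold in CD4 cells (2.49 ± 0.18, adjusted p = 4.46e-07). *Cd44* fell by 0.74 in CD8 cells (adjusted p = 9.18e-05) and had 0.00 in CD4 cells. *Spn*, the sialomucin CD43, fell by 0.58 in CD4 cells (adjusted p = 0.000391), and its smaller CD8 fall (-0.29, adjusted p = 0.0352) did not hold on leaving out CD8 control replicate A or B or any CD8 Foxp3-positive replicate (-0.24 to -0.33, adjusted p = 0.052 to 0.146). Of 12 sialic acid receptors 0 were called by limma in CD8 cells, where 3 had an unadjusted p under 0.05, and 4 fell in CD4 cells, *Pilrb1*, *Pilrb2*, *Cd22* and *Siglec1*. The CD4 share was 33.3%, against 22.5% of all genes. Of the 12 receptors 4 had any group mean above the median of all genes. *Pilrb2*, *Cd22* and *Siglec1* were below that median in every group, and *Siglec1* only just passed (adjusted p = 0.0499). *Pilrb1* fell by 2.22 in CD4 cells (adjusted p = 3.09e-05), and its probes may also read its near copy *Pilrb2*. In CD8 cells *Pilrb1* had -0.69 (adjusted p = 0.0817). *Siglec15* was called in neither lineage (0.06 in CD8 and 0.11 in CD4 cells).

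Over the 12 arrays the profiles of the genes were set against 1788 genes whose group means spanned at least 1 on the log2 scale. These correlations mostly reflect the 4 group means that the arrays share and are given as a description. *St8sia6* was most like *Ccr6* (Pearson r = 0.981), *Tlr1* (0.975) and *Dock4* (0.973). *St3gal1* was most like *Sgms1* (0.993), *Slc37a3* (0.991) and *Plxnd1* (0.991), and *St8sia1* like *Hipk2* (0.989), *Maf* (0.985) and *Mxd1* (0.981). *Galnt3* was closest to *Tarsl2* (0.978), to the ganglioside enzyme *B4galnt1* (0.976) and to *Top1mt* (0.976). *Cmah* was closest to *Endou* (0.951), *B3gnt5* (0.949) and *Osbpl3* (0.945), and *Fut7* to *Nars* (0.940), *Bcat1* (0.934) and *Slc7a5* (0.918). *Gcnt1* was most like *Echdc2* (0.985), *Gpr34* (0.979) and *Armc7* (0.976), *St3gal6* like *Tlcd2* (0.980), *Mcoln2* (0.980) and *Bspry* (0.962), and *St6gal1* like *Sestd1* (0.912), *Igf1r* (0.903) and *Itih5* (0.891). For *Selplg* the closest were *Calcoco1* (0.983), *Trp53inp1* (0.972) and *Fbxo32* (0.968). Among the 10 genes themselves the closest profiles were those of *Galnt3* and *Fut7* (0.885) and of *Galnt3* and *Cmah* (0.867), and the most opposed those of *Cmah* and *St8sia1* (-0.854) and of *St3gal6* and *St8sia6* (-0.851).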

How the data were processed

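RNA of 12 samples, 4 groups of 3, was measured on Affymetrix arrays from 250 ng of total RNA each, as the labels state. Per the submitters' processing notes, the authors used RMA in Affymetrix Expression Console, and the deposited log2 values are 1 per transcript cluster. RMA brings arrays to a common distribution, so a change of total RNA per cell would not show. Software versions, genome build and batches are not given in the sources. Array medians lay between 5.23 and 5.33, and the number of arrays limits the precision.

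Of 34365 clusters 23521 had 1 gene symbol in the platform annotation, and the 1814 with several and 9030 without one were not used. The brightest cluster stood for each of the 1082 genes with more than 1. No filter on low levels was applied to the resulting 22180 genes. One model with 4 group means was fitted in R 4.3.3 with limma 3.58.1 (lmFit, eBayes), with 8 residual and 4.56 prior degrees of freedom. Its 5 contrasts were two-sided, with Benjamini-Hochberg adjustment over all genes of a contrast. The model was also run on simulated data, in which far fewer genes changed than were called here and in a single group. That run was a check of the code and is no support for the calls.

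The members, lists and tests were chosen with earlier results of these data known. Named were the 10 genes, the 3 largest called changes and the brightest uncalled gene of each list, and the 3 genes most correlated with each member, and genes named in a list's count fall outside this rule. Alternatives were the replicate letter as a block, trended robust moderation, fits of the compared arrays alone, removal of dim genes (11813 kept), median centring, the mean of all clusters of a gene, and leaving out each array.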

Additional observations from a re-analysis of the deposited data

Results flagged for a closer look

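For each gene listed here the Foxp3-positive minus control difference itself differed between the lineages in the limma model, at an adjusted p under 0.05. The values are the CD8 effect minus the CD4 effect on the log2 scale. Among the sialic acid and O-glycan genes they were -3.17 for *Cmah*, -2.63 for *Galnt3*, -2.36 for *St8sia6*, -1.08 for *Fut7*, -0.86 for *St6gal1*, 1.62 for *St3gal1* and 1.70 for *St8sia1*. Among other enzymes they were -0.997 for *Nanp*, -0.90 for *B4galnt1*, -0.85 for *B4galt1*, -0.84 for *Man1c1*, 0.66 for *Tpst2*, 0.75 for *B4galt5*, 0.91 for *St6galnac2*, 1.05 for *Fut8* and 1.82 for *Man1a*. Among carriers and receptors they were -0.75 for *Cd44*, 1.41 for *Cd24a* and 1.53 for *Pilrb1*. The call for *B4galt5* was lost without any CD8 Foxp3-positive replicate or replicate A or B of either CD4 group (0.67 to 0.78, adjusted p = 0.0555 to 0.0800), and that for *Fut7* under the settings given with its values. The lineages also differed in the length of culture, which cannot be told apart from them.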

How the results depend on the processing

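Of 890 values of the 10 genes under 18 alternatives, 837 kept their direction and their side of the threshold, 39 lost a call and 8 gained one. The other 6 changed sign, all for the uncalled difference of effects of *Selplg* (0.01 as reported). They were -0.03 with median centring and -0.026 to -0.002 without CD8 control replicate A or B, CD8 Foxp3-positive replicate C, CD4 control replicate B or CD4 Foxp3-positive replicate B. The count of called genes among the 10 was 8 in the CD8 comparison (8 to 9 with single arrays left out, 8 to 9 under the other alternatives), and 7 in the CD4 comparison (5 to 7, and 6 to 8). It was 7 for the difference of effects (6 to 7, and 6 to 7), 7 for CD8 against CD4 in Foxp3-positive cells (5 to 7, and 5 to 7) and 6 in control cells (5 to 7, and 5 to 6). The count over the pathway lists for CD8 against CD4 in Foxp3-positive cells was 16 and ran from 8 to 16 with single arrays left out, lowest without CD8 Foxp3-positive replicate B (8) and CD4 Foxp3-positive replicates A (9) and B (10). Over all genes that comparison called 1044, and 674 and 687 without the first and second of these arrays. *Selplg* gained its call in both lineages with trended robust moderation (adjusted p = 0.00576 and 0.00747) and without dim genes (0.0225 and 0.0271), and in CD4 cells with median centring (0.0340). With the compared arrays alone, CD8 against CD4 lost *Cmah* (0.0800) and *St8sia1* (0.0529) in Foxp3-positive cells and *Fut7* (0.0503) in control cells. Deviations from the group means of arrays with the same letter correlated at -0.102 to 0.137 over genes, so the letters are not treated as pairs. With the replicate block the counts were 8, 7, 6, 7 and 6 in the order above, the lost call being that of *Fut7*. The causes of these changes were not tested.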

Other observations

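The list for N-glycans, outside the O-glycan pathway, held mannosidases and *Fut8* besides the Mgat branching genes. Most genes of this mixed list were lower in CD4 Foxp3-positive than in CD4 control cells. Of 12 measured, 1 rose and 8 fell in CD4 cells (median -0.48) and 1 rose and 2 fell in CD8 cells (median -0.04). The 8 that fell in CD4 cells were *Fut8*, *Man1a*, *Man1c1*, *Man2a1*, *Man2a2*, *Mgat1*, *Mgat2* and *Mgat3*. *Mgat4a* (0.11 in CD4 cells) and *Mgat4b* (-0.17) were called in neither lineage. Over all genes 12.1% were called higher and 10.4% lower in CD4 cells. The 3 of 12 called in CD8 cells (25%) are near the 20.0% of all genes. *Mgat5*, which makes the branch that galectins bind, was the gene that rose, by 1.92 ± 0.14 in CD8 cells (adjusted p = 8.19e-07) and by 1.94 ± 0.14 in CD4 cells (adjusted p = 5.2e-07). *Man1a*, a Golgi mannosidase, fell by 1.42 in CD4 cells (adjusted p = 8.94e-06) and had 0.40 in CD8 cells (adjusted p = 0.072). *Man1c1* fell by 1.45 in CD8 cells (adjusted p = 1.35e-05) and by 0.61 in CD4 cells (adjusted p = 0.00882). The fucosyltransferase *Fut8*, which adds the core fucose of N-glycans, fell by 0.85 in CD4 cells (adjusted p = 0.000112) and had 0.20 in CD8 cells (adjusted p = 0.291), and *Man1a2* was called in neither lineage.

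Ganglioside enzymes moved both ways, 2 of 11 higher and 3 lower in CD8 cells and 1 higher and 3 lower in CD4 cells. That is 45.5% and 36.4% called, where 20.0% and 22.5% of all genes were. *B4galnt1*, which makes GM2 and GD2, only the latter from the product of *St8sia1*, fell 2.45-fold in CD8 cells (-1.29 ± 0.11, adjusted p = 2.78e-06). Its smaller CD4 fall (-0.39, adjusted p = 0.0204) was lost without CD4 control replicate A or B or CD4 Foxp3-positive replicate B (-0.29 to -0.38, adjusted p = 0.057 to 0.0941). *B4galt5*, a lactosylceramide synthase, fell by 0.98 in CD4 cells (adjusted p = 0.000308) and had -0.24 in CD8 cells (adjusted p = 0.334), and *St8sia5* was called in neither lineage.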
